A study of Arabidopsis thaliana with 16 samples.

Results

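A set of 40 nuclear genes of Arabidopsis thaliana moved in opposite directions in the organs of seedlings kept at 32 °C. Each had, on group means plus 1, at most 0.5 times its 22 °C level in the root at a uniform 32 °C, and at least 4 times its 22 °C level in the shoot of the same regime. The rule also asked for a mean of at least 100 in the 22 °C root and in the 32 °C shoot, and of at least 10 in the 22 °C shoot. Of 32833 loci in the table, 32548 were nuclear and 15420 of these met the level conditions. Among the 15420, the root condition held for 881 genes and the shoot condition for 698, and both held for 40. The members were thus chosen by their measured values in the 32 °C and 22 °C libraries, and the differences between them are given below as a description with no test. The members lie on all 5 chromosomes, with 8 on chromosome 1, 6 on chromosome 2, 12 on chromosome 3, 5 on chromosome 4 and 9 on chromosome 5. A symbol is given for 22 of them, and the other 18 are known by their locus codes.

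The seedlings were wild type and 10 days old, and their roots and shoots were collected as separate samples. All spent 4 days at 22 °C in MS1/2 medium and then 6 days in 1 of 3 regimes. In the gradient regime (32TGRooZ) the shoot was at 32 °C while the temperature of the root zone decreased, in the uniform warm regime (32SR) the whole seedling was at 32 °C, and in the 22 °C regime (22SR) it stayed at 22 °C. The sources used here do not give the temperatures along the gradient root, the depth at which it was sampled or the number of seedlings in a library. After identical columns were counted once there were 3 gradient, 3 uniform 32 °C and 1 22 °C root libraries, and 2 gradient, 3 uniform 32 °C and 2 22 °C shoot libraries. The labels call the samples replicas without saying that they came from separate cultures, so p-values measure only the spread between these libraries. Values are the authors' normalised counts, called counts below, and they are not corrected for gene length, so levels are compared only within a gene.

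Plants have no single body temperature, and root and shoot, joined by the vascular tissue, express largely different genes. Heat induces chaperones through heat shock factors in both organs. Other responses are tied to an organ: root hairs and the suberised endodermis belong to the root, while jasmonate signalling, glucosinolate modification and senescence programmes act in many tissues and are used differently in each. The members come from several of these groups. They include enzymes of stress metabolism and detoxification, jasmonate and storage proteins, a glucosinolate oxygenase, carriers for ions and metabolites, and proteins of the root surface and cell wall.

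The libraries matched their organ labels. A list of 13 genes of green tissue summed to 1366 to 7647 in the 7 root libraries and to 1241008 to 2749553 in the 7 shoot libraries, and the highest root value was that of gradient root replicate 3. A list of 12 root genes summed to 399009 to 833870 in roots. In shoots this root list was not flat across regimes: it summed to 281475 and 222411 in gradient shoots, to 298734, 202579 and 315213 at a uniform 32 °C, and to 63038 and 56255 at 22 °C. Most of that sum was PYK10, a beta-glucosidase of endoplasmic reticulum bodies, with 296137, 201170 and 313051 in 32 °C shoots and 61748 and 55170 in 22 °C shoots. The root hair genes followed the same order, with PRP3 at 618, 268 and 575 in 32 °C shoots against 80 and 85 in 22 °C shoots, and EXPA7 at 103, 48 and 77 against 8 and 13. The tonoplast aquaporin TIP2;3 did not, with 121, 60 and 88 in 32 °C shoots against 93 and 110 in 22 °C shoots. Whether these root transcripts in shoots have a part in the members' values was not tested, and in such whole-organ samples fewer cells of a type and less RNA per cell cannot be told apart.

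The 250 bases before the annotated start of 6 members are shown, read from the RefSeq genome TAIR10.1 by locus code, because these members stand for the main kinds of behaviour described below. SAG13 (chromosome 2, plus strand) and AOX1D (chromosome 1, minus strand) had the root far below its 22 °C level, RAP2.6 (chromosome 1, plus strand) encodes a transcription factor, FMO GS-OX2 (chromosome 1, plus strand) had the largest shoot fold, AT5G17700 (chromosome 5, minus strand) was a shoot-preferred carrier and RHS19 (chromosome 5, plus strand) a root hair gene. Capitals mark matches on either strand to motifs whose letters are spelled out further below: the abscisic acid response element, the W-box core, the G-box, the C-repeat and the heat shock element.
SAG13: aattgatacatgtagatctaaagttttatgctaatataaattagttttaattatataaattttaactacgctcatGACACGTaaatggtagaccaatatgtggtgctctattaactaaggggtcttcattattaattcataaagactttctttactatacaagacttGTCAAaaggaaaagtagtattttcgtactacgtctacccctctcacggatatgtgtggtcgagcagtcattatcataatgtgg
AOX1D: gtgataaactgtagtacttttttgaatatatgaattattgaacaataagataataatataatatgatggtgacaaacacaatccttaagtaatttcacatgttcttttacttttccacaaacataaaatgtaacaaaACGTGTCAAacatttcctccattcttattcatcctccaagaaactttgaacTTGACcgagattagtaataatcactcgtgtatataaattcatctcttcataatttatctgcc
RAP2.6: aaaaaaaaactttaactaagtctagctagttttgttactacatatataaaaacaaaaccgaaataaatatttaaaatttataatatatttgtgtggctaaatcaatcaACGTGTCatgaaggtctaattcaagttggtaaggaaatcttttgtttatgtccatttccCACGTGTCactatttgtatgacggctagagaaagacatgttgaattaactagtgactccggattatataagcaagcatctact
FMO GS-OX2: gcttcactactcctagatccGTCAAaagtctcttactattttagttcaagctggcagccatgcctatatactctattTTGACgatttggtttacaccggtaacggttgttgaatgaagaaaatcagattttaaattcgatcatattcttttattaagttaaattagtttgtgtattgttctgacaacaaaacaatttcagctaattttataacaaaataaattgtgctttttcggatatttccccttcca
AT5G17700: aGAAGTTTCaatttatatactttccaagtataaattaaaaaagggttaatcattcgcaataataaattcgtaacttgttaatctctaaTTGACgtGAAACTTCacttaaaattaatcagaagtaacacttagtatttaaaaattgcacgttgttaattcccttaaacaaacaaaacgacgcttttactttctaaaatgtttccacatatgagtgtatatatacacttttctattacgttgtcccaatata
RHS19: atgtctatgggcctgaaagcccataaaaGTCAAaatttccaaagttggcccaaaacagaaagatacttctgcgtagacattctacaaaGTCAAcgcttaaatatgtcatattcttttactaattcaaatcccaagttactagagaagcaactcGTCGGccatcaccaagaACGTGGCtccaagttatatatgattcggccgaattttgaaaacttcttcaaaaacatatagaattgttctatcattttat

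The run ACGTGTCAA in the AOX1D promoter holds an abscisic acid response element and a W-box core that overlap, and CACGTGTC in that of RAP2.6 holds a G-box that overlaps an abscisic acid response element. RAP2.6 has 2 abscisic acid response elements in this window, FMO GS-OX2 has 2 W-box cores and no other motif searched, and AT5G17700 has 2 heat shock elements. The 6 upstream regions thus share no single arrangement of these motifs.

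The fall in the root ranged from 2.01-fold to 113-fold on means plus 1, with a median of 2.84-fold, and the rise in the shoot from 4.00-fold to 30.7-fold, with a median of 5.60-fold. A root fall of at least 10-fold was seen in 4 members, and 22 were at 3-fold or less. In the shoot 6 members reached 10-fold or more and 23 were at 6-fold or less, so most members lie near the limits of the rule. Across all tested genes 12.1% were called lower in 32 °C than in 22 °C roots and 55.5% higher in 32 °C than in 22 °C shoots, and since the rule used both contrasts nothing is read from these shares. Just inside the root limit lay AT3G47480 at 49.7% and AT5G47530 at 49.9% of the 22 °C level, and just outside AT4G01895 at 50.2% and AT1G22160 at 50.8%. Just inside the shoot limit lay EDA4 at 4.00-fold and AT2G22510 at 4.01-fold, and just outside MAPKKK17 at 3.94-fold and AT1G09310 at 3.98-fold.

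**Figure D1:**
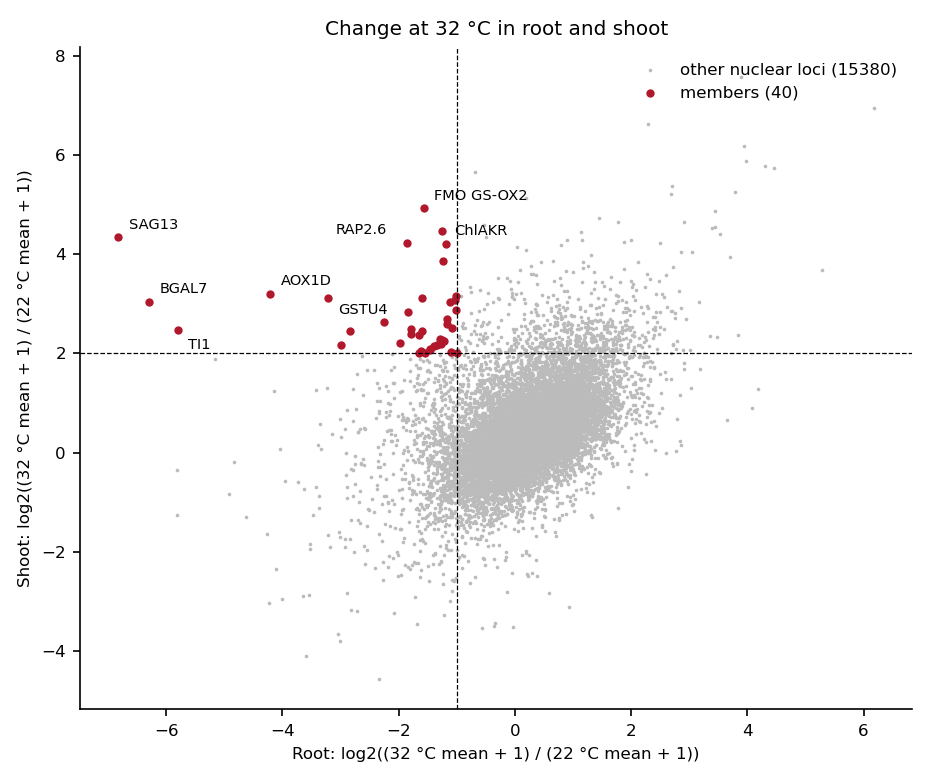
Change in root (horizontal) and shoot (vertical) at a uniform 32 °C against 22 °C, each as log2 of the ratio of group means plus 1, for the 15420 nuclear loci that met the level conditions. Dashed lines mark the limits of the rule, the 40 members are the red points at upper left, and SAG13, BGAL7, TI1 and AOX1D lie far to the left of the rest.

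Scaling bears on the size of these differences. The median log2 difference of all tested genes was 0.29 in 32 °C against 22 °C roots and 0.49 in the same contrast of shoots, and it became 0.03 and 0.04 when trimmed-mean (TMM) factors were applied within each organ. All 40 members kept their direction in both organs after that scaling. The limits of the rule are wider than these shifts, so this outcome was set in advance and supports nothing. Their median log2 difference was -1.84 with it and -1.58 without it in roots, and 2.03 with it and 2.48 without it in shoots. The rule itself found 35 genes after TMM scaling, of which 22 were among the 40. The groups of 32 °C and 22 °C libraries overlapped for 0 members in the shoot and for 1 member, MLP28, in the root, where the 22 °C group is 1 library. The rule favours such separation, and overlap was not counted over all genes.

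Within the warm groups the libraries were not alike. Among the 32 °C roots, replicate 2 held the lowest value of 25 members and replicate 3 the highest of 26. Among the 32 °C shoots, replicate 3 held the highest value of 24 members, and the lowest was in replicate 2 for 20 and in replicate 1 for 16. Replicate 2 of the 32 °C shoots also had the lowest root marker sum of its group, 202579. Which replicate was lowest or highest was not counted over all genes, so nothing about the members in particular is read from these counts.

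**Figure D2:**
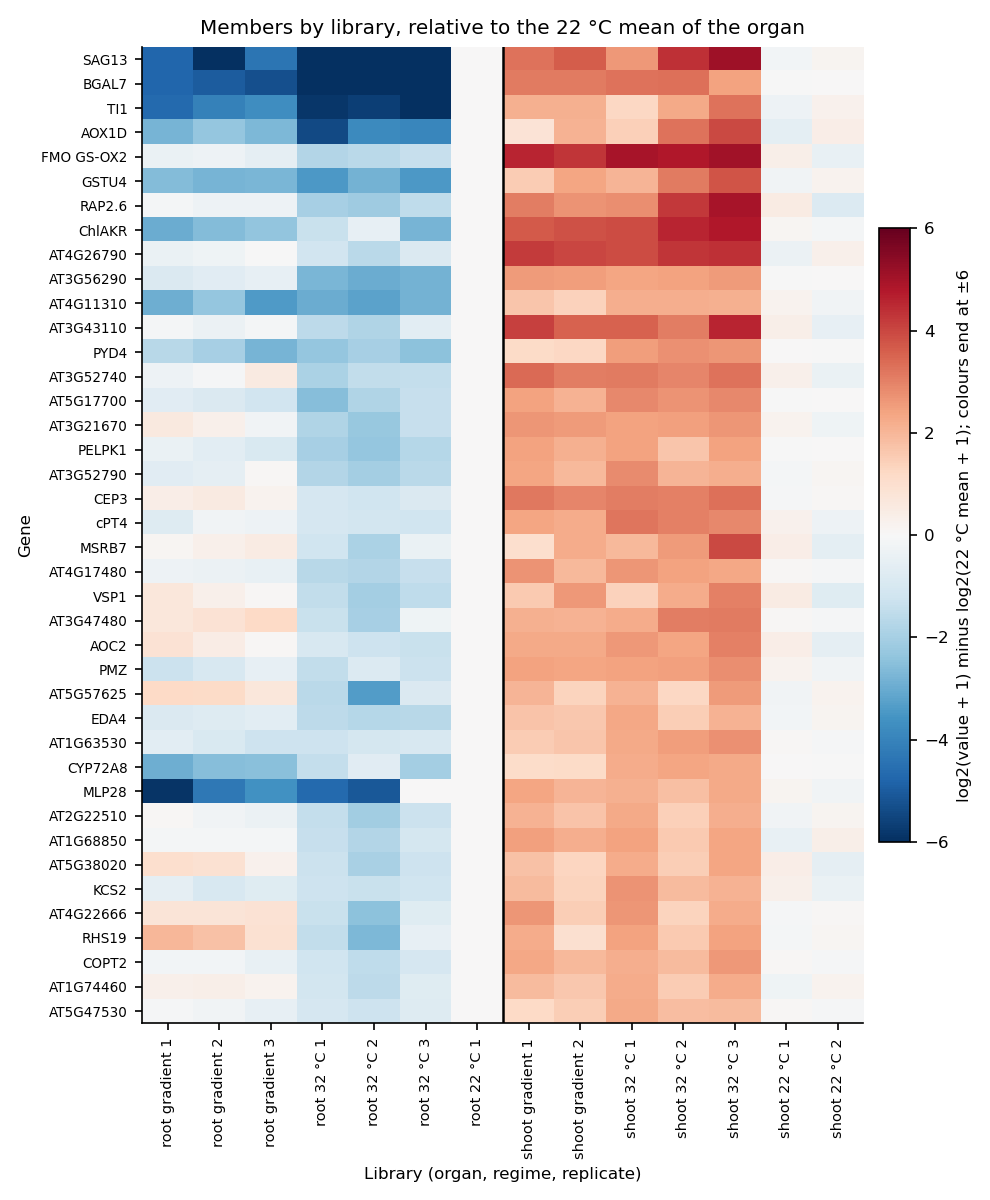
Each of the 40 members (rows, ordered by the sum of root fall and shoot rise) in each of the 14 distinct libraries (columns), as log2(value + 1) minus log2 of the organ's 22 °C mean plus 1. Uniform 32 °C roots are blue (but for MLP28 in replicate 3) and 32 °C shoots red by the choice of genes, while the gradient root columns range from dark blue (SAG13, BGAL7) to pale or red (RHS19, AT5G57625).

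The deepest root falls, of at least 10-fold, were those of SAG13, BGAL7, TI1 and AOX1D. SAG13, a short-chain dehydrogenase widely used as a senescence and cell death marker, had 13, 5 and 17 counts in gradient roots, 2, 4 and 1 in 32 °C roots and 377 in the 22 °C root library. Shoots held 372 and 474 counts under the gradient, 236, 791 and 1327 at a uniform 32 °C, and 33 and 42 at 22 °C. All 6 warm-regime root libraries thus lay far below the 22 °C root, and all 5 warm-regime shoot libraries above both 22 °C shoots. On means plus 1 the root was 113-fold lower and the shoot 20.4-fold higher at a uniform 32 °C. The 32 °C shoot values spread widely, with a mean of 785 ± 546 (SD, n = 3) against 37.5 ± 6.36 (SD, n = 2) at 22 °C. SAG13 was the single member on the list of 21 senescence and starvation genes, and no other of the 20 tested in both organs was called lower in the root and higher in the shoot.

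BGAL7, a beta-galactosidase that trims galactose from cell wall and other polymers, had 133, 111 and 92 counts in gradient roots, 48, 45 and 41 in 32 °C roots and 3571 in the 22 °C root. Its shoot values were 411 and 401 under the gradient, 452, 464 and 247 at 32 °C, and 45 and 47 at 22 °C. At 22 °C it was a root-preferred transcript, and in the warm regimes every shoot library exceeded every root library of the same regime. TI1, a trypsin inhibitor of the defence against herbivores, had 122, 185 and 235 counts in gradient roots, 54, 62 and 49 in 32 °C roots and 3128 in the 22 °C root. In shoots TI1 had 1507 and 1496 counts under the gradient, 816, 1670 and 3246 at 32 °C, and 281 and 407 at 22 °C. The root fall was 78.2-fold for BGAL7 and 55.9-fold for TI1, and the shoot rise 8.27-fold and 5.54-fold.

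AOX1D encodes an alternative oxidase, which passes electrons to oxygen in mitochondria without the cytochrome pathway. It had 29, 41 and 31 counts in gradient roots, 4, 14 and 13 in 32 °C roots and 209 in the 22 °C root. In shoots it had 20 and 50 counts under the gradient, 31, 114 and 184 at 32 °C, and 7 and 15 at 22 °C. The gradient shoots thus lay above both 22 °C shoots and overlapped the lower end of the 32 °C shoots. GSTU4, a tau class glutathione transferase, showed the same order of groups with 60, 52 and 53 counts in gradient roots, 32, 50 and 33 in 32 °C roots and 364 in the 22 °C root. Its shoot counts were 39 and 71 under the gradient, 57, 119 and 188 at 32 °C, and 11 and 15 at 22 °C. GSTU4 belongs to a tandem array of similar genes, and the sources used here do not say how reads shared between copies were counted. SAG13 and GSTU4 lie on the same chromosome with 11 protein-coding genes between them.

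ChlAKR is a chloroplast aldo-keto reductase that acts on reactive carbonyls. It had 13, 17 and 20 counts in gradient roots, 42, 77 and 15 in 32 °C roots and 108 in the 22 °C root, so the gradient and 32 °C roots overlapped. In shoots it had 406 and 448 counts under the gradient, 471, 748 and 867 at 32 °C, and 33 and 28 at 22 °C, and every gradient shoot lay below every 32 °C shoot. Other enzymes of the set were MSRB7, a methionine sulfoxide reductase that repairs oxidised protein, the cytochrome P450 CYP72A8, and PYD4, named for the breakdown of pyrimidines. MSRB7 had the higher mean in the root in each regime, though its organs overlapped at 32 °C, with 2876 to 3725 counts in gradient roots, 710 to 2016 in 32 °C roots and 2625 in the 22 °C root, against 93 and 222, 181 to 745, and 31 and 62 in the matching shoots. CYP72A8 was the 1 member whose gradient roots, at 221 to 297 counts, lay below both its 32 °C roots, at 415 to 1057, and its 22 °C root, at 1699.

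The jasmonate pathway gave a synthesis enzyme and a response gene. AOC2, an allene oxide cyclase that forms the ring of the jasmonate precursor, had 190, 143 and 111 counts in gradient roots, 53, 44 and 41 in 32 °C roots and 105 in the 22 °C root. In shoots AOC2 had 4647 and 4720 counts under the gradient, 5993, 4989 and 7929 at 32 °C, and 1275 and 669 at 22 °C. It was shoot-preferred in every regime. VSP1, a vegetative storage protein induced by jasmonate, had 9653, 7485 and 6369 counts in gradient roots, 2180, 1499 and 2125 in 32 °C roots and 6102 in the 22 °C root. Its shoot counts were 1246 and 2580 under the gradient, 1111, 2019 and 3501 at 32 °C, and 595 and 253 at 22 °C. For both genes the gradient roots lay above the 32 °C and 22 °C roots alike. AOC2 and VSP1 have close copies, AOC1 and VSP2, and reads shared with them make both values uncertain.

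On the list of 19 genes of jasmonate synthesis and response, AOC2 and VSP1 are the 2 members of the 40, and their direction at 32 °C was set by the rule. Over the whole list, both included, 5 of 15 tested genes were called higher and 3 lower in 32 °C than in 22 °C roots by limma, where 31.9% and 12.1% of all genes were. In shoots 9 of 17 were called higher and 0 lower, where 55.5% of all genes were higher. RAP2.6, an AP2/ERF transcription factor that answers to abscisic acid, jasmonate and salt, had 933, 828 and 808 counts in gradient roots, 255, 230 and 346 in 32 °C roots and 1009 in the 22 °C root. In shoots it had 117 and 89 counts under the gradient, 96, 263 and 430 at 32 °C, and 19 and 7 at 22 °C. Root and shoot libraries of RAP2.6 overlapped at 32 °C, and the root was far above the shoot in the other regimes.

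FMO GS-OX2, a flavin monooxygenase that oxidises the side chain sulfur of aliphatic glucosinolates, had the largest shoot fold, 30.7. It had 166, 176 and 149 counts in gradient roots, 64, 71 and 84 in 32 °C roots and 219 in the 22 °C root. Its shoot counts were 2395 and 1976 under the gradient, 3140, 2864 and 3282 at 32 °C, and 126 and 74 at 22 °C. In both organs the gradient libraries lay between the 32 °C and 22 °C libraries with no overlap, and on the shoot side they were close to the 32 °C end. MLP28, a major latex protein-like protein of a family with several close copies, had 6, 20 and 32 counts in gradient roots, 15, 11 and 416 in 32 °C roots and 407 in the 22 °C root. In shoots it had 58065 and 45863 counts under the gradient, 48499, 39611 and 54395 at 32 °C, and 12602 and 9736 at 22 °C. Replicate 3 of the 32 °C roots thus stood at the 22 °C level, and MLP28 was shoot-preferred in every regime.

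Membrane carriers made up another group. AT3G21670, which the reference table also lists as NPF6.4, belongs to the nitrate and peptide transporter family and had 661, 527 and 380 counts in gradient roots, 123, 88 and 165 in 32 °C roots and 433 in the 22 °C root. In shoots it had 3800 and 3608 counts under the gradient, 3199, 3293 and 3763 at 32 °C, and 697 and 510 at 22 °C. The gradient roots thus spanned the 22 °C root, and the gradient shoots overlapped the 32 °C shoots. AT3G56290, annotated as a potassium transporter, had 262, 300 and 346 counts in gradient roots, 71, 61 and 66 in 32 °C roots and 480 in the 22 °C root. Its shoot counts were 1164 and 1138 under the gradient, 1011, 1074 and 1178 at 32 °C, and 196 and 200 at 22 °C, which is a close spread within each group. COPT2, which takes up copper, and AT5G17700, a carrier of the multidrug and toxin extrusion family, completed the group. COPT2 had 2195 to 2667, 1048 to 1485 and 2988 counts in gradient, 32 °C and 22 °C roots, and AT5G17700 had 51 to 73, 19 to 44 and 116. In gradient, 32 °C and 22 °C shoots COPT2 had 647 to 822, 626 to 996 and 156 to 175 counts, and AT5G17700 had 692 to 887, 1072 to 1228 and 162 to 164. COPT2 thus kept the root on top in each regime, and AT5G17700 the shoot.

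Cell wall and lipid proteins were a further set, most of them root-preferred at 22 °C. PELPK1, a hydroxyproline-rich wall protein, had 18621, 15824 and 13067 counts in gradient roots, 6267, 4987 and 7520 in 32 °C roots and 24783 in the 22 °C root. In shoots PELPK1 had 4438 and 3665 counts under the gradient, 4439, 2662 and 4555 at 32 °C, and 820 and 863 at 22 °C. AT4G26790, a GDSL-type lipase, had 93, 104 and 120 counts in gradient roots, 55, 40 and 66 in 32 °C roots and 123 in the 22 °C root. Its shoot counts were 212 and 186 under the gradient, 173, 225 and 237 at 32 °C, and 8 and 13 at 22 °C. PELPK1 stayed above its shoot level in roots of each regime, whereas AT4G26790 was higher in the shoot in both warm regimes.

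RHS19, a root hair specific peroxidase, had 5128, 4466 and 2479 counts in gradient roots, 472, 198 and 940 in 32 °C roots and 1303 in the 22 °C root. In shoots RHS19 had 196 and 82 counts under the gradient, 224, 123 and 223 at 32 °C, and 38 and 44 at 22 °C. Every gradient root lay above the 22 °C root, and the order of the 3 shoot replicates at 32 °C was near that of PRP3 and EXPA7, with replicate 2 lowest in each. The same replicate was the lowest 32 °C shoot for the secretory CAP family gene AT5G57625, the lipid-transfer genes AT4G22666 and EDA4, the peroxidase AT1G68850 and KCS2, a ketoacyl-CoA synthase that elongates the fatty acids of suberin. Of the 36 members higher in the root at 22 °C, replicate 2 was lowest for 17 and replicate 1 for 15. Among the 4 shoot-preferred members, replicate 2 was lowest for 3. The lowest replicate was not counted over all genes, so nothing is read from these counts, and the cause of the order was not tested. In roots AT5G57625 and AT4G22666 had 3131 to 4572 and 5994 to 6368 counts under the gradient, 195 to 1074 and 644 to 2125 at 32 °C, and 1971 and 3498 at 22 °C. EDA4 and KCS2 had 5529 to 6460 and 1066 to 1454 counts in gradient roots, 3050 to 3425 and 830 to 910 in 32 °C roots, and 10118 and 2088 in the 22 °C root. AT5G57625 and AT4G22666 thus exceeded the 22 °C root under the gradient, while EDA4 and KCS2 stayed below it.

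By the rule every member was higher in 32 °C than in 22 °C shoots, as the summed root markers were. The 36 members whose level at 22 °C was higher in the root summed to 22427 and 21187 in gradient shoots, to 26098, 25177 and 34646 in 32 °C shoots, and to 4900 and 4452 in 22 °C shoots. The 4 shoot-preferred members did likewise, with sums of 67399 and 54883 in gradient shoots, 58919, 48965 and 67305 in 32 °C shoots, and 14736 and 11079 in 22 °C shoots. Casparian strip genes on the marker list did not move in that way: CASP1 had 555, 369 and 370 counts in 32 °C shoots against 503 and 330 in 22 °C shoots. Across the 12 root markers, 6 were called higher and 0 lower in 32 °C than in 22 °C shoots by limma, a share no larger than the 55.5% of all genes called higher there, and their part in the members' shoot values was not tested.

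**Figure D3:**
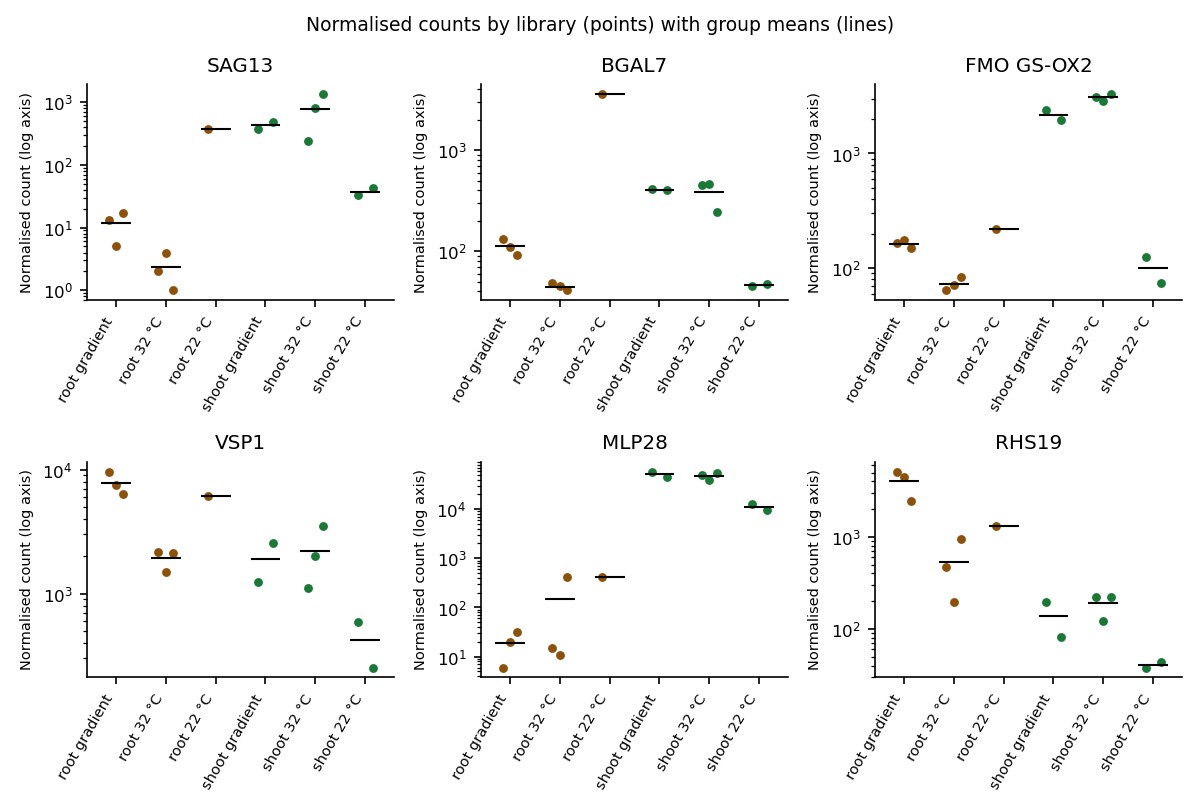
Counts of 6 members in every distinct library (points) with group means (lines), on log axes, for gradient, uniform 32 °C and 22 °C roots (brown) and shoots (green). MLP28 shows 1 of 3 uniform 32 °C roots at the 22 °C level, and RHS19 and VSP1 show all 3 gradient roots above the 22 °C root.

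The remaining members were of mixed kinds. They include the LysM protein AT3G52790, the papain-type proteases AT4G11310 and CEP3, the cis-prenyltransferase cPT4, the alpha/beta hydrolase AT4G17480, the calcium-binding protein AT3G47480, the AN1 zinc finger protein PMZ, and the methyltransferase AT5G38020. The wall protein AT2G22510, the GDSL-type lipase AT1G74460, the auxin-responsive family gene AT5G47530 and the uncharacterized genes AT3G43110, AT3G52740 and AT1G63530 complete the 40. AT3G52740 and AT3G52790 are near neighbours, with 4 protein-coding genes between them. Over these 14 genes the root fall ranged from 2.01-fold to 7.99-fold and the shoot rise from 4.01-fold to 14.6-fold.

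Their gradient roots did not follow 1 pattern. AT4G11310 had 29, 45 and 21 counts in gradient roots, 28, 24 and 31 in 32 °C roots and 228 in the 22 °C root, so the gradient and 32 °C roots overlapped far below 22 °C. CEP3, here the locus AT3G48350, a cysteine protease, had 516, 562 and 453 counts in gradient roots, 192, 170 and 216 in 32 °C roots and 389 in the 22 °C root. AT3G47480 had 165, 189 and 235 counts in gradient roots, 40, 25 and 87 in 32 °C roots and 103 in the 22 °C root. For CEP3 and AT3G47480 every gradient root thus lay above the 22 °C root. In shoots CEP3 had 1478 and 1259 counts under the gradient, 1394, 1332 and 1634 at 32 °C, and 155 and 170 at 22 °C, and it was root-preferred in the 22 °C regime alone. AT5G38020, a methyltransferase of unknown substrate here, had 9030, 8687 and 5405 counts in gradient roots, 1842, 1189 and 1921 in 32 °C roots and 4561 in the 22 °C root. Its shoot counts were 1232 and 877 under the gradient, 1695, 992 and 1827 at 32 °C, and 471 and 245 at 22 °C, so root and shoot overlapped at 32 °C and were far apart under the gradient.

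Among the uncharacterized genes, AT3G43110 had 367, 315 and 361 counts in gradient roots, 131, 114 and 257 in 32 °C roots and 396 in the 22 °C root. Shoots held 289 and 198 counts under the gradient, 198, 140 and 404 at 32 °C, and 21 and 11 at 22 °C. Its organs overlapped at 32 °C, and its upstream region was the 1 with a match to the P1BS motif. AT3G52740 had 442, 514 and 773 counts in gradient roots, 145, 190 and 198 in 32 °C roots and 539 in the 22 °C root, against 204 and 164, 167, 149 and 186, and 23 and 14 in the matching shoots. Its gradient roots thus spanned the 22 °C root, while its gradient shoots overlapped the 32 °C shoots. AT1G63530 had 583, 488 and 391 counts in gradient roots, 386, 434 and 471 in 32 °C roots and 916 in the 22 °C root, so that gradient and 32 °C roots overlapped.

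The opposite changes turned round the organ in which many members were higher. At 22 °C, 36 members had the higher mean in the root and 4 in the shoot (AT3G21670, AT5G17700, AOC2 and MLP28). At a uniform 32 °C the count was 17 in the root and 23 in the shoot, so that 19 members changed organ, SAG13, BGAL7, TI1, FMO GS-OX2 and GSTU4 among them. For 10 members the root and shoot libraries overlapped at 32 °C, so the order of the organs is not settled there. These orders follow from the libraries that chose the members.

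The gradient libraries took no part in that choice, and the difference between gradient root and gradient shoot is the test that is free of it. All 40 members were among the 23070 genes tested in a limma fit of all 6 groups. At an adjusted p below 0.05, 18 members were called higher in the gradient root, where 39.3% of all genes were, and 17 lower, where 33.4% were. In all, 35 of 40 members and 72.8% of all genes were called, and nothing is read from these numbers, which are not far apart. The median log2 difference was 0.38 over the members and 0.09 over all genes tested. All 17 members that were root-preferred at both uniform temperatures were called higher in the gradient root. Of the 19 that changed organ, 13 were called lower in the gradient root, 5 were not called and 1, VSP1, was called higher. All 4 shoot-preferred members were called lower. The same split was not made for all genes, so nothing about the members in particular is read from it.

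RAP2.6 averaged 856 ± 67.1 counts in gradient roots (SD, n = 3) and 103 ± 19.8 in gradient shoots (SD, n = 2), a log2 difference of 3.05 ± 0.51 (SE; limma adjusted p = 0.000142). Its gradient roots stood at 84.9% of the 22 °C root on means plus 1, while both gradient shoots lay above the 22 °C shoots. SAG13 was lower in the gradient root, by a log2 difference of -5.20 ± 0.65 (limma adjusted p = 1.13e-05), and so were BGAL7 at -1.86 ± 0.25 (2.37e-05) and TI1 at -3.10 ± 0.43 (3.34e-05). FMO GS-OX2 differed by -3.73 ± 0.20 (4.93e-09), AOC2 by -5.01 ± 0.28 (6.44e-09) and MLP28 by -11.57 ± 1.15 (1.38e-06). In the other direction VSP1 differed by 2.11 ± 0.46 (0.00124), PELPK1 by 1.96 ± 0.24 (8.36e-06) and RHS19 by 4.91 ± 0.56 (5.06e-06). AT4G22666 had the largest such difference among the members, 5.85 ± 0.47 (1.95e-07).

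The 5 members not called were AOX1D, GSTU4, AT3G43110, AT3G47480 and PMZ. AOX1D had 29, 41 and 31 counts in gradient roots against 20 and 50 in gradient shoots, and GSTU4 60, 52 and 53 against 39 and 71, so both overlapped between organs. Their log2 differences, 0.07 ± 0.70 (limma adjusted p = 0.935) and 0.06 ± 0.43 (limma adjusted p = 0.908), changed sign when gradient shoot replicate 1 was left out, to -0.57 and -0.37. AT3G47480, at 0.87 ± 0.42 (limma adjusted p = 0.0787), was called after TMM scaling (adjusted p = 0.041). AT4G17480, called lower at -0.60 ± 0.22 (limma adjusted p = 0.0243), lost its call after TMM scaling (-0.41, adjusted p = 0.109), without gradient root replicate 3 (-0.56, adjusted p = 0.053) and without gradient shoot replicate 1 (-0.24, adjusted p = 0.376). AT4G26790, at -0.91 ± 0.26 (limma adjusted p = 0.00751), lost its call without gradient shoot replicate 1 (-0.82, adjusted p = 0.059).

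**Figure D4:**
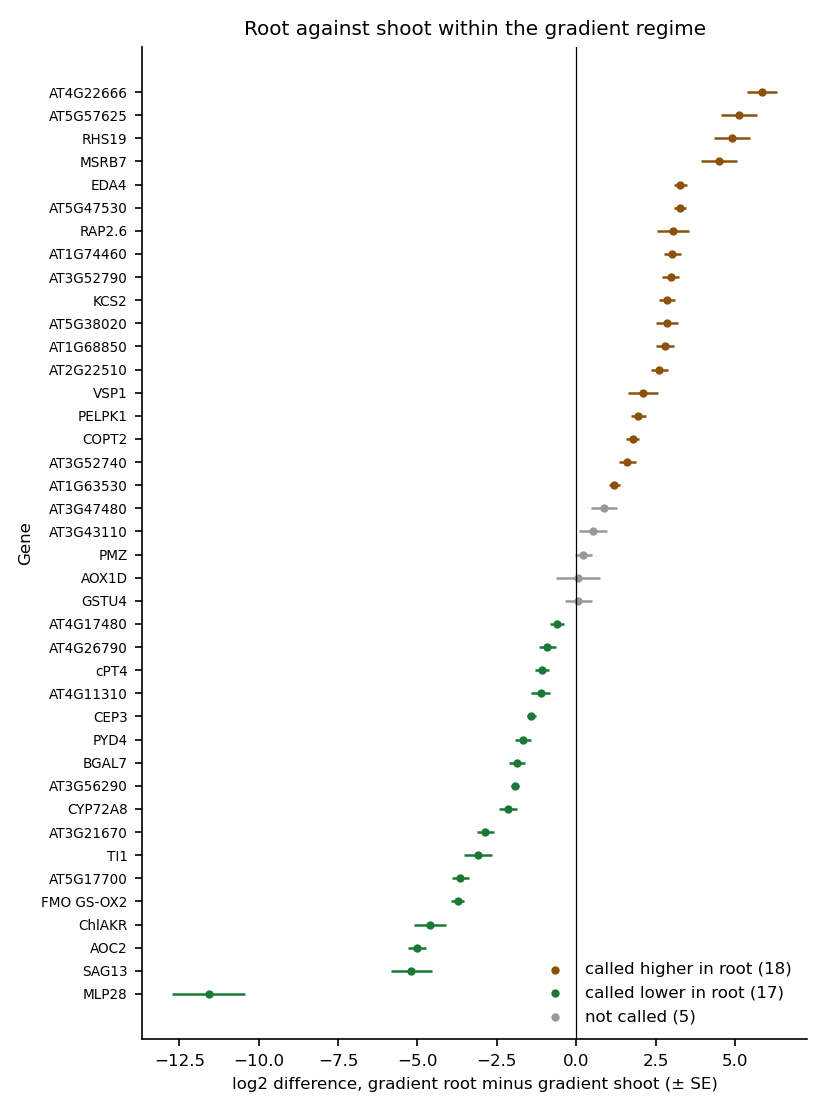
Difference between gradient root and gradient shoot for each of the 40 members (rows), as log2 difference ± SE from the limma fit of all 6 groups. Positive values are higher in the root: 18 members are called higher (brown), 17 lower (green) and 5 are not called (grey), from AT4G22666 at 5.85 to MLP28 at -11.57.

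With a cooler root zone under the same warm shoot, most members stood higher in the root than at a uniform 32 °C. In the gradient root against the 32 °C root, 32 members were called higher, where 12.6% of all genes were, 1 was called lower (CYP72A8), where 30.0% of all genes were, and 7 were not called. The median log2 difference was 1.33 over the members and -0.19 over all genes. The 32 °C roots took part in the choice of the members, which asked for low values in them, so these counts are a description of where the gradient roots lay and support nothing further. RHS19 had the largest difference, 3.11 ± 0.52 (SE; limma adjusted p = 0.00339), followed by AT5G57625 at 2.95 ± 0.54 (limma adjusted p = 0.0045). AT3G56290 differed by 2.17 ± 0.16 (limma adjusted p = 0.000281), AT3G21670 by 2.06 ± 0.27 (limma adjusted p = 0.00159) and VSP1 by 2.02 ± 0.20 (limma adjusted p = 0.000718).

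SAG13 differed by 1.89 ± 0.54 (limma adjusted p = 0.0238) at counts of 1 to 17, and its call was lost without either of 32 °C root replicates 1 and 3 or of gradient root replicates 1 and 3 (1.56 to 1.86, adjusted p = 0.056 to 0.065), and with the replicate number as a block (1.89, adjusted p = 0.051). AOX1D, at 1.75 ± 0.44 (limma adjusted p = 0.0153), lost it without gradient root replicate 2 (1.61, adjusted p = 0.064). MLP28, at -1.35 ± 1.27 (limma adjusted p = 0.417), rested on 32 °C root replicate 3 and stood at 0.29 without it. ChlAKR, not called at -1.11 ± 0.53 (limma adjusted p = 0.124), was called lower without that same replicate (-1.73, adjusted p = 0.011). Green tissue markers were also highest in gradient root replicate 3, at 7647 against 1366 and 3449 in the other gradient roots, and their part in these values was not tested.

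Against the 22 °C root, 0 members were called higher in the gradient root, where 11.1% of all genes were, 12 were called lower, where 5.15% were, and 28 were not called. At an unadjusted p below 0.05 it was 0 higher and 16 lower, where 33.5% of all genes passed in either direction. The median log2 difference was -0.38 over the members and 0.09 over all genes. The 22 °C root is 1 library, which the rule required to be high, and its spread was assumed to be that of the other root groups. Lower calls went to SAG13 at -5.04 ± 0.76 (limma adjusted p = 0.00565), BGAL7 at -5.00 ± 0.26 (limma adjusted p = 0.00014) and TI1 at -4.16 ± 0.34 (limma adjusted p = 0.000702). Their gradient means were 3.35%, 3.16% and 5.81% of the 22 °C level on means plus 1. AOX1D, GSTU4, ChlAKR, AT4G11310, PYD4, EDA4, AT1G63530, CYP72A8 and KCS2 were the others called lower. Without gradient root replicate 2 the count was 7, and AOX1D (-2.76, adjusted p = 0.068) and ChlAKR (-2.67, adjusted p = 0.114) were among those lost.

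Set side by side, the 2 root contrasts divide the members. Called higher than at 32 °C and not called against 22 °C were 26 members, RAP2.6, FMO GS-OX2, AT3G56290, AT3G21670, PELPK1, VSP1 and AOC2 among them. Called higher than at 32 °C and lower than at 22 °C were 6: SAG13, BGAL7, TI1, AOX1D, EDA4 and KCS2. Another 5 (GSTU4, ChlAKR, AT4G11310, PYD4 and AT1G63530) were called lower than at 22 °C and not called against 32 °C, CYP72A8 was called lower in both, and PMZ and MLP28 were called in neither. All gradient roots of MLP28 nevertheless lay far below its 22 °C root, and in 5 of the other processing settings MLP28 was called lower than at 22 °C. By library values, all gradient roots lay between the 32 °C roots and the 22 °C root for 19 members, above both for 10, below both for 1, and overlapped another group for 10. The 10 above both were RHS19, AT5G57625, AT4G22666, AT5G38020, AT3G47480, AT1G74460, CEP3, MSRB7, VSP1 and AOC2. These places were not counted over all genes. The rule set the 32 °C roots low and the 22 °C root high, so the counts are a description.

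The shoots of these seedlings were at 32 °C in both regimes, and few members were called between them. In the gradient shoot against the 32 °C shoot, 0 members were called higher, where 0.123% of all genes were, 2 were called lower, where 0.265% were, and 38 were not called. At an unadjusted p below 0.05 it was 0 higher and 10 lower, where 14.7% of all genes passed in either direction. The median log2 difference was -0.27 over the members, 32 of which stood below 0, and 0.01 over all genes, and the rule had asked for high values in the 32 °C shoots. Limma called 85 of 21877 genes (0.389%) in that contrast, and 3224 had an unadjusted p below 0.05. The 2 called were PYD4, with 690 and 729 counts in gradient shoots against 1733, 2089 and 1911 in 32 °C shoots, and CYP72A8, with 1180 and 1206 against 2560, 2775 and 2628. Their log2 differences were -1.42 ± 0.10 and -1.15 ± 0.07 (SE; limma adjusted p = 0.00819 for both), and the groups did not overlap. Both calls were lost without gradient shoot replicate 1 (adjusted p = 0.231) or replicate 2 (adjusted p = 0.087) and with the replicate number as a block (adjusted p = 0.058), in each case with differences close to those given.

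Against 22 °C shoots, 38 members were called higher in gradient shoots, where 52.6% of all genes were, and AOX1D and MSRB7 were not called. The median log2 difference was 2.19 over the members and 0.49 over all genes, a contrast whose 22 °C shoots the rule had used. After TMM scaling the median of all genes was 0.04, that of the members 1.74, and 37 were called. Gradient shoots lay between the 22 °C and 32 °C shoots for 12 members and overlapped another group for 28. These places too were not counted over all genes, and the rule had set the 22 °C and 32 °C shoots apart.

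The difference between gradient and uniform 32 °C libraries was also set side by side in root and shoot. As the log2 change from the uniform 32 °C to the gradient regime in the root minus that in the shoot, in the limma fit of all 6 groups, 32 members were called higher, where 8.02% of all genes were, 0 lower, where 19.1% were, and 8 were not called. At an unadjusted p below 0.05 it was 34 higher and 0 lower, where 40.7% of all genes passed in either direction. The median was 1.53 over the members and -0.19 over all genes. The 32 °C libraries that chose the members are part of this value too, low in the root and high in the shoot by the rule, so the count is a description. AT3G56290 had 2.09 ± 0.18 (SE; limma adjusted p = 0.000128), from a root difference of 2.17 and a shoot difference of 0.08. AT3G21670 had 1.94 ± 0.34 (limma adjusted p = 0.00268), from 2.06 in the root and 0.12 in the shoot. Without gradient shoot replicate 2, 18 members were called. CYP72A8 was lower under the gradient in both organs, by -1.28 ± 0.31 in the root and -1.15 ± 0.07 in the shoot, and the difference between them, -0.13 ± 0.37, was not called (limma adjusted p = 0.826).

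**Figure D5:**
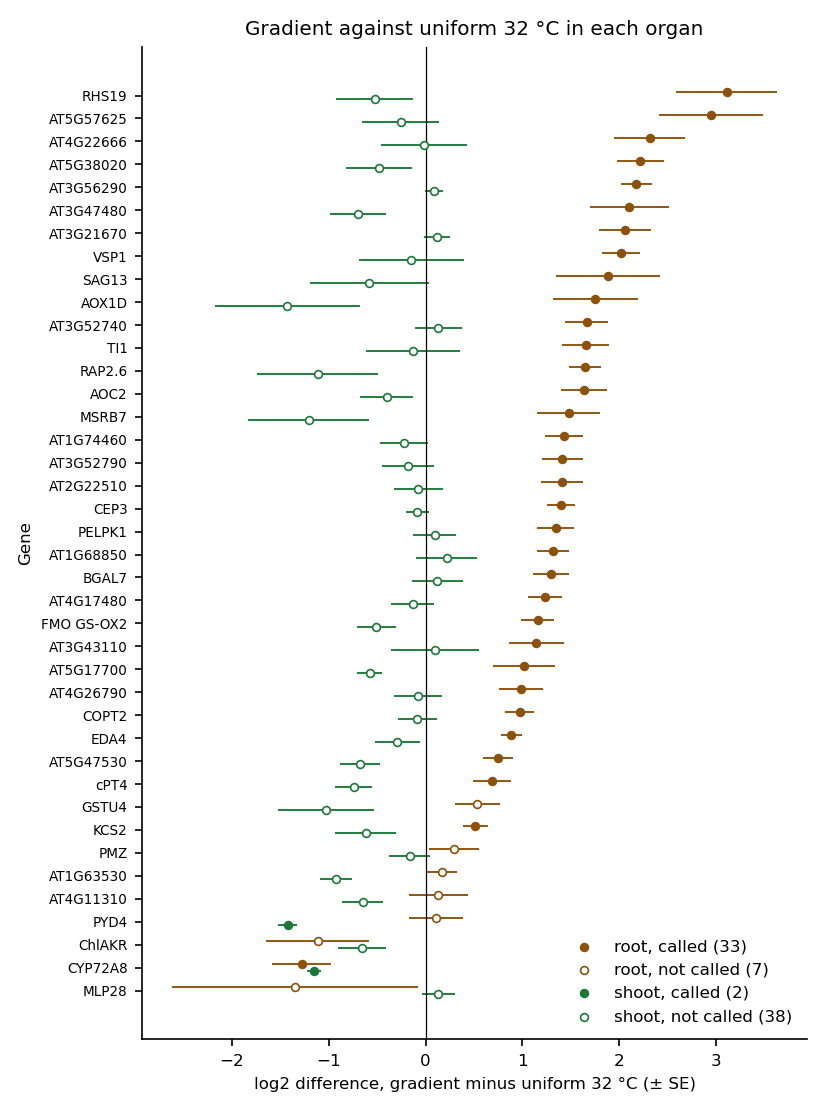
Gradient minus uniform 32 °C for each of the 40 members (rows), as log2 difference ± SE from the limma fit of each organ, in the root (brown) and the shoot (green), with filled points called at an adjusted p below 0.05. In the root 33 members are called, 32 of them to the right of 0, and in the shoot 2 (PYD4 and CYP72A8).

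The same opposite pattern was looked for in 15 lists of pathway genes. Over all 20721 genes tested in both organs, 630 (3.04%) were called lower in the root and higher in the shoot at 32 °C, and 484 (2.34%) after TMM scaling. The list of abscisic acid and dehydration genes held 8 of 23 (34.8%), of which none is a member, and 4 of 23 after TMM scaling. Those with the smallest adjusted p were ATHB7, a homeodomain factor induced by abscisic acid, RAB18, a dehydrin, and P5CS1, the rate-limiting enzyme of proline synthesis. RAB18 had 8, 10 and 7 counts in 32 °C roots against 165 in the 22 °C root, and 963, 1266 and 1110 in 32 °C shoots against 485 and 461 in 22 °C shoots. P5CS1 had 2503, 2536 and 2722 counts against 6087 in roots, and 7811, 11615 and 9834 against 3835 and 2344 in shoots. ATHB7 had 1726, 1760 and 1427 counts against 3368 in roots, and 1753, 2073 and 1951 against 771 and 533 in shoots. None of the 3 genes overlapped between the temperatures in either organ.

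RAB18 differed by -4.17 in roots (limma adjusted p = 0.000251) and 1.22 in shoots (limma adjusted p = 0.000273), P5CS1 by -1.24 (0.000689) and 1.68 (0.000295), and ATHB7 by -1.05 (0.0028) and 1.58 (7.98e-05), all on the log2 scale. Their shoot rise stayed below the 4-fold limit of the rule. Warmth growth and auxin genes held 3 of 12 (ATHB2, HFR1 and SAUR20, 2 of 12 after TMM scaling). The circadian clock list held 2 of 22 (LHY and RVE8), sugar transporters 2 of 13 (SWEET4 and SWEET16), flavonoid synthesis 1 of 7 (F3H), and each of these lists 0 after TMM scaling. Some of these genes were low: SAUR20 had 0, 1 and 1 counts in 32 °C roots against 10 in the single 22 °C root library. That library was deposited as 2 identical columns, and SAUR20 passed the filter in roots through them alone. Its lower call in roots, part of the counts before and after TMM scaling, was thus set by the filter and nothing is read from it. In the same roots F3H had 9, 9 and 8 against 49, and SWEET4 2, 16 and 1 against 47. The 20 heat shock genes tested in both organs held 0, with 13 called higher in both. The lists of amino acid breakdown, cold-regulated, galactinol and raffinose, salicylic acid, sulfur deficiency, starch, and thalianol and marneral genes also held 0.

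Motif matches were counted in the upstream regions of all 40 members and of 27443 protein-coding genes, from 250 bases before to 50 after the start, on both strands. The abscisic acid response element, searched as ACGTGNC, was present in 9 members (22.5%) against 10.3% of all genes. These were SAG13, AOX1D, RAP2.6, ChlAKR, MSRB7, EDA4, RHS19, AT3G43110 and AT5G47530, from several of the groups described above. The W-box core, TTGAC, was present in 25 (62.5%) against 50.5%. The heat shock element, searched as GAANNTTC or TTCNNGAA, was present in 8 (20%) against 19.3%, the G-box CACGTG in 3 (7.5%) against 7.68%, the C-repeat CCGAC in 5 (12.5%) against 15%, and the P1BS motif GNATATNC in 1 (2.5%) against 6.25%. The evening element AAAATATCT was present in 0 members against 2.82% of all genes. Some motifs overlap in letters, as the G-box and the abscisic acid response element can. With the 250 bases before the start alone, the shares were 22.5% against 8.57% for the abscisic acid response element and 62.5% against 44.9% for the W-box core. These shares carry no test.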

How the data were processed

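Polyadenylated RNA of root and shoot samples was sequenced, per the labels' protocols. The deposited table holds 32833 loci in 16 columns, and its unit is a score: the authors' normalised counts as whole numbers. Neither the authors' normalisation nor the genome build, annotation, strand setting or handling of shared reads is stated in the sources used here. STAR 2.5.3a, HISAT2 and DESeq2 are named in the submitters' processing notes, without saying for what. Column totals were 33075029 to 34769425, and read depth is unknown, so no counting interval was computed. Replicates 1 and 2 of the 22 °C roots, and replicates 2 and 3 of the gradient shoots, were equal at every locus, and each pair was counted as 1 sample, leaving 14 libraries. Other replicate pairs were equal at 6644 to 9019 loci.

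Because the values are normalised, limma 3.58.1 in R 4.3.3 was run on log2(value + 1) with an intensity trend and two-sided moderated tests, in 1 fit per organ (4 residual degrees of freedom) and 1 of both organs (8). Genes with at least 10 in at least 2 columns were tested, and p-values were adjusted by Benjamini-Hochberg over all of them. Genes below an adjusted p of 0.05 were called. Fold changes on this scale understate those of low genes. The scripts were tested on simulated data. TMM factors (trims of 0.3 and 0.05) were an alternative. Names and upstream regions came from RefSeq TAIR10.1, which matched all 32548 nuclear loci, and no coordinates are given. Members given in every library were the 10 with the largest sum of root fall and shoot rise, the 5 with the highest 32 °C shoot mean and those on a list, and RHS19, AT4G11310, CEP3, AT3G47480, AT5G38020, AT3G43110, AT3G52740 and AT1G63530 were added after their values were seen. Members, lists and tests were chosen with earlier results of these data known. Python 3.11.15 with pandas 2.3.3 and matplotlib 3.10.9 served for tables and figures.

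Replicate numbers were checked for pairing by the correlation of deviations from group means across genes. It was 0.157, 0.240 and 0.256 between 32 °C roots and shoots, and those numbers were taken as pairs. It was 0.0773 and 0.0280 between gradient roots and shoots, and 0.0254, -0.0927 and -0.192 between gradient and 32 °C roots. With fewer pairs, it was 0.0759 and 0.204 between gradient and 32 °C shoots, and -0.137 and 0.0243 between 32 °C and 22 °C shoots. Between gradient and 22 °C shoots it was 0.121 in both pairs. None of these were taken as pairs, and the main fits used no pairing.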

Additional observations from a re-analysis of the deposited data

Results flagged for a closer look

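For 11 of the 15 members with the largest summed changes, the highest shoot means or a place on a list, the change from the uniform 32 °C to the gradient regime differed between root and shoot by a limma test of that difference itself at an adjusted p below 0.05. The values are the root change minus the shoot change on the log2 scale, and the 32 °C libraries in them also chose the members. They were 3.18 for AOX1D, 2.76 for RAP2.6, 2.16 for VSP1, 2.09 for AT3G56290, 2.04 for AOC2, 1.94 for AT3G21670, 1.78 for TI1, 1.67 for FMO GS-OX2, 1.25 for PELPK1, 1.17 for BGAL7 and 1.06 for AT4G26790. AT3G56290, AOC2, AT3G21670 and FMO GS-OX2 stayed called when any 1 library was left out. The others lost the call in at least 1 such fit: the adjusted p reached 0.146 for AT4G26790, 0.117 for AOX1D, 0.115 for VSP1, 0.113 for TI1, 0.085 for BGAL7, 0.072 for PELPK1 and 0.060 for RAP2.6, in each case without gradient shoot replicate 1 or 2. AT4G26790 also lost it with the replicate number as a block (0.95, adjusted p = 0.064). Over all settings tried, the call was lost in 10 for AT4G26790 and 10 for TI1, 5 for AOX1D and 4 for BGAL7. It was lost in 2 for VSP1 and in 1 each for PELPK1 and RAP2.6. SAG13 and GSTU4, not called in the main fit, gained the call in 6 and 3 settings. No group held the 4 distinct libraries needed to look for single outlying samples.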

How the results depend on the processing

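The value of 40 members came to 35 with TMM scaling, 38 with equal totals and 46 with medians, and to 31 to 52 when 1 library was left out. Over all genes and member counts, 329 recomputed values kept their call within 1.5 times and 31 did not. Among single members 1594 values stayed on their side of the threshold in the same direction, 60 lost the call, 27 gained it and 11 changed direction. Genes called in gradient against 22 °C roots numbered 3558, against 1093 with a replicate block, 1677 with only the 2 groups compared and 8804 with identical columns kept (chosen after seeing the data), and 1354 to 6591 with 1 library left out. Members higher there numbered 1 with only the 2 groups and 0 to 1 with 1 library left out, and members lower 7 to 15. Gradient against 32 °C shoots gave 128 called genes with a pseudocount of 8, 12 with no filter, 0 with the block, 130 with only the 2 groups, 155 with all 6 groups, 1182 with identical columns kept and 0 to 127 with 1 library left out. Members lower there numbered 0 with the block, 5 with identical columns kept and 0 to 2 with 1 library left out. Leaving out 1 library gave 5368 to 10648 called genes and 1 to 2 members lower in gradient against 32 °C roots, and 2930 to 7617 called genes and 18 to 32 members higher for the difference between organs.

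Between gradient root and gradient shoot, AOX1D turned to -0.17 with the block, -0.15 with identical columns kept, -0.079 without gradient root replicate 2 and -0.57 without gradient shoot replicate 1, and with 1 library left out it ranged up to 0.71. GSTU4 turned to -0.034 with the block, -0.083 with identical columns kept, -0.0045 without gradient root replicate 1 and -0.37 without gradient shoot replicate 1, and ranged up to 0.48. MLP28 in gradient against 32 °C roots turned to 0.29, and its difference between organs to 0.16, without 32 °C root replicate 3, and without another library they ranged down to -2.27 and -2.40. The difference between organs for ChlAKR turned to 0.068 without 32 °C root replicate 2 and ranged down to -1.07. The cause was not tested.

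With TMM scaling the called genes split into higher and lower as 4482 and 4082 (6984 and 2646 without it) in 32 °C against 22 °C roots, 7095 and 6627 (12141 and 2852) in the same shoots, 3962 and 4027 (2752 and 6572) in gradient against 32 °C roots, 1827 and 1542 (2431 and 1127) in gradient against 22 °C roots, 6333 and 5996 (11510 and 2446) in gradient against 22 °C shoots, and 2653 and 2700 (1851 and 4414) for the difference between organs. For that difference the 32 °C libraries were taken as pairs, but the block also tied gradient and 22 °C libraries by number, which were not. The block gave 5616 called genes against 6265 in the main fit without pairing, with 30 members higher. Elsewhere libraries share only a number, and the block called 16487 genes between gradient organs against 16786, and 40 members higher in gradient against 22 °C shoots.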
